A study of Homo sapiens with 4 samples.

Results

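The genes described here build and run the mitotic apparatus: 56 genes of the centromere, kinetochore, spindle checkpoint, mitotic kinesins, mitotic kinases and cyclins, chosen by symbol from the 28814 genes of a count table. All 56 had a row and passed the filter on low counts. The study sequenced RNA of the human line 697, established from a B-cell acute lymphoblastic leukaemia. Cells were kept for 24 h with 1 µM MZ1 (2 libraries) or with an equal volume of its solvent DMSO (2 libraries). MZ1 is a degrader molecule that binds BET bromodomain proteins and the VHL ubiquitin ligase at opposite ends. The comparison asks how the mitotic transcripts of this line stood after a day with the degrader. Whether replicates were grown apart is not labelled, so the spread behind each p-value may be technical only. No spike-in is named and levels are relative to the library, so a change in the amount of RNA per cell cannot be seen. A change in the share of dividing cells cannot be told apart from a change of transcript levels within cells.

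At mitosis each chromosome is held at its centromere, where nucleosomes with the histone variant CENP-A carry an inner kinetochore, and this in turn carries an outer kinetochore that grips microtubules. The spindle checkpoint holds back the anaphase-promoting complex, a ubiquitin ligase, until all kinetochores are attached. Transcripts of this machinery peak late in the cell cycle, and in dividing human cells many of their promoters are switched by the MuvB core with MYBL2 and FOXM1, and repressed in resting cells by the DREAM complex. In acute lymphoblastic leukaemia they are commonly read as markers of proliferation.

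MZ1 libraries held a larger share of RNA from these genes, with most kinesin, spindle and cytokinesis genes higher and the kinetochore and checkpoint genes going both ways. Of the 56 genes, 35 rose, 15 fell and 6 were not called. A gene is called here when its adjusted p is under 0.05 (quasi-likelihood test of edgeR with Benjamini-Hochberg adjustment over 16862 genes). Over all tested genes 84.2% were called, 42.8% higher and 41.3% lower. The 89.3% of mitotic genes called is thus close to the background, whereas 62.5% were higher and 26.8% lower. Among protein-coding genes alone 87.3% were called, 38.5% higher and 48.8% lower. Changes were small beside the rest of the transcriptome: 14 of the 56 (25%) changed at least 2-fold, 6 up and 8 down, against 55.2% of all tested genes (29.0% up and 26.2% down). The median size of change, in either direction, was 0.60 on the log2 scale for the mitotic genes and 1.17 for all tested genes. The signed median log2 fold change (MZ1 over DMSO) was 0.29, against 0.05 for all tested genes and −0.20 for tested protein-coding genes. Of tested protein-coding genes 52.1% changed at least 2-fold, and their median size of change was 1.05. The libraries of the groups did not overlap for 50 of the 56 (89.3%), against 91.3% of all tested genes. With 2 libraries against 2, the smallest two-sided p of an exact permutation test is 0.333, and every call depends on edgeR's estimate of spread, which draws on all genes.

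Summed over the 56 genes, the level was 8922 and 8805 CPM (a gene's reads relative to the library's reads in genes, after TMM scaling) in the MZ1 libraries, against 7214 and 7102 CPM in the DMSO libraries. The libraries held 14246367 to 14544789 counted reads with MZ1 and 16005427 to 16488005 with DMSO, and each mitotic gene had between 38 and 14938 reads in each of them. Reads from mitochondrially encoded genes made up 9.12 ± 0.20% with MZ1 and 5.65 ± 0.24% with DMSO (SD, n = 2 each), and their part in the results was not tested. All 8 B-lineage markers examined, PAX5 among them, were detected in every library. Of these 7 fell and RAG1 was not called, and their summed level was 1046 and 1097 CPM with MZ1 and 2363 and 2376 CPM with DMSO. The 4 measured of 5 myeloid markers summed to 21.1 and 17.2 CPM with MZ1 and 6.35 and 5.31 CPM with DMSO, with 3 higher, 1 lower, and MPO at 0 in both DMSO libraries. The sums were 4.10 and 3.83 CPM with MZ1 against 0.67 and 0.47 CPM with DMSO for T cell markers (1 of 5 measured), and 3.61 and 2.75 CPM against 0.12 and 0.47 CPM for erythroid markers (3 of 4 measured, with HBA1 at 0 in both DMSO libraries). Fibroblast markers (2 of 4 measured, COL1A1 and PDGFRB) summed to 33.3 and 31.1 CPM with MZ1 and 107 and 106 CPM with DMSO. Most of this was PDGFRB, at 19.7 and 17.1 CPM with MZ1 and 94.1 and 95.7 CPM with DMSO. Whether these shifts bear on the mitotic genes was not tested.

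**Figure D1:**
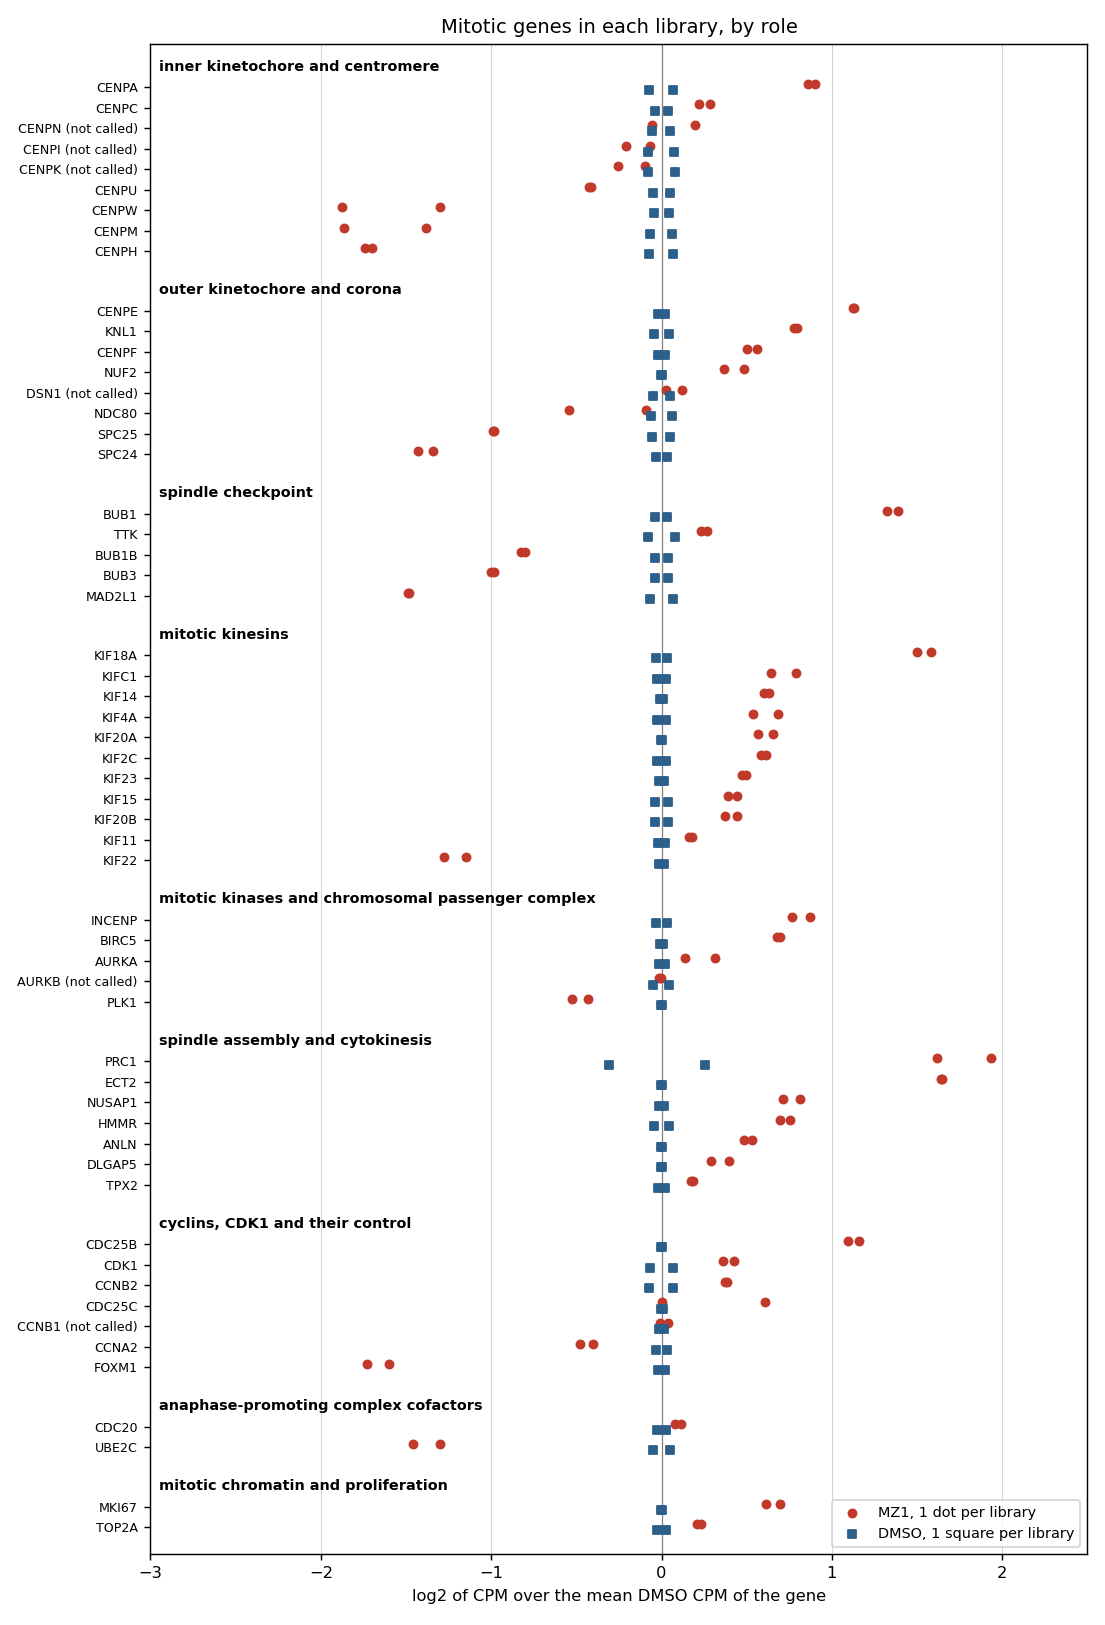
Level of each of the 56 mitotic genes in each library, as log2 of its CPM over the mean DMSO CPM of the gene (x axis), by role (y axis). Dots are MZ1 libraries and squares DMSO libraries. The kinesins lie to the right of 0 except KIF22, and CENPH, CENPM, CENPW, SPC24, MAD2L1, FOXM1 and UBE2C lie furthest to the left.

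The promoters of these genes were searched for the letters of known elements. Since many promoters of this machinery are known to be switched by the MuvB core, a high share with its element could be foreseen. The cell cycle genes homology region (CHR), the element that the MuvB core contacts in human cells, was searched as TTTGAA or TTCGAA, and the box bound by NF-Y as CCAAT, each on both strands with overlapping matches counted, from 250 bases before to 50 after each RefSeq start (GRCh38.p14). Of the 56 genes 46 had a promoter entry. CHR letters stood in 35 of the 46 genes (76.1%), against 15.7% of 11076 tested genes with a promoter entry. Counted by promoter, they stood in 39 of the 56 promoters of these genes (69.6%), against 16.4% of all 35116 promoters. CCAAT stood in 37 of the 46 genes (80.4%), against 42.8% of tested genes, and in 73.2% of the 56 promoters, against 34.6% of all promoters. Both stood together in 65.2% of the genes, against 6.49% of tested genes, and in 57.1% of the 56 promoters, against 6.38% of all promoters. The E-box letters CACGTG, searched for contrast, stood in 10.9% of the genes, against 12.3% of tested genes. They stood in 8.93% of the 56 promoters, against 7.26% of all promoters. CHR letters were found in 27 of 30 genes that rose, 7 of 10 that fell and 1 of 6 that were not called. In 20 of the 35 genes they began within the 60 bases before a start, and in the rest only elsewhere in the window. A match in letters is a description and does not show a bound site.

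The 120 bases before the RefSeq start are shown for genes with TTTGAA inside the last 60 bases: the 3 with the largest rise, the only 2 that fell, and CCNB2, chosen after its letters were seen for its evenly spaced CCAAT copies. Genes with more than 40% of their exonic length shared with other genes were passed over. Capitals mark CHR letters and CCAAT on either strand, where ATTGG is CCAAT read in reverse. The stretches are chr11:28108157-28108276 on the minus strand for KIF18A, chr2:26785936-26786055 for CENPA, chr11:62123891-62124010 for INCENP, chr15:40160949-40161068 for BUB1B, chr16:23678769-23678888 for PLK1 and chr15:59105026-59105145 for CCNB2, the last 5 on the plus strand.
KIF18A: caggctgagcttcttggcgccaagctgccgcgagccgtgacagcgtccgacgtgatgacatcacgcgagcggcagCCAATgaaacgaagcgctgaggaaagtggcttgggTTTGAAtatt
CENPA: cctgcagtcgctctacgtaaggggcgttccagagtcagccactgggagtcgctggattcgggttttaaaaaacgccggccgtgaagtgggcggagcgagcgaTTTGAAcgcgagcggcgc
INCENP: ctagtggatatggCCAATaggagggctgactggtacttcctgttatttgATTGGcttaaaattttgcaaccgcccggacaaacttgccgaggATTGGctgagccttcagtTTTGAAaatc
BUB1B: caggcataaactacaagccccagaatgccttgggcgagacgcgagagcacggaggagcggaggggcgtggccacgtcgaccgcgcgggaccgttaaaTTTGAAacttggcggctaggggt
PLK1: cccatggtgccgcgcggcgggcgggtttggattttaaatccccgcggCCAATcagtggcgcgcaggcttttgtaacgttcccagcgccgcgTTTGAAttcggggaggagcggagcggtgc
CCNB2: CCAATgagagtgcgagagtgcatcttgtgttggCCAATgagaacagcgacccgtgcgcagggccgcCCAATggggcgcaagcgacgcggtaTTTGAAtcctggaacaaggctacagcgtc
The TTTGAA letters begin 10 bases before the start in KIF18A and INCENP, 18 in CENPA, 23 in BUB1B and 29 in PLK1 and CCNB2. In CCNB2 the CCAAT copies begin 33 bases apart, and the CHR letters begin 25 bases after the last of them. The same letters thus stand near the start of genes that rose (KIF18A, log2 fold change 1.54) and of genes that fell (BUB1B, −0.81). Over the 46 genes the median log2 fold change was 0.42 with CHR letters (35 genes) and −0.01 without (11 genes), and over the 11076 tested genes with a promoter entry it was −0.15 with and −0.17 without. With both CHR letters and CCAAT the median was 0.45 (30 genes), and otherwise 0.002 (16 genes). Over the tested genes these medians were 0.08 (719 genes) and −0.19 (10357 genes). For CCAAT the medians were 0.38 with and 0.42 without over the 46 genes, and −0.09 and −0.23 over the tested genes. Reasons for these differences were not tested.

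Of 9 inner kinetochore genes 2 rose, 4 fell and 3 were not called. Both that rose encode the base of the structure. CENPA (ENSG00000115163; chromosome 2, 26764289 to 26801067, GRCh38), the centromeric histone H3 variant, stood at 78.6 and 76.4 CPM with MZ1, against 40.01 and 44.2 CPM with DMSO. This is a 1.84-fold rise (log2 fold change 0.88 ± 0.07, SE; edgeR adjusted p = 5.94e-12), with both MZ1 libraries above both DMSO libraries. CENPC, which links CENP-A nucleosomes to the outer kinetochore, was at 47.1 and 45.0 CPM with MZ1 and 39.7 and 37.7 CPM with DMSO (0.25 ± 0.07), a call lost when no count filter was used and when DMSO replicate 2 was left out (0.17 to 0.52 over the alternatives). The largest fall was in CENPH. CENPH (ENSG00000153044; chromosome 5, 69189548 to 69210357), of the CENP-H/I/K/M group that joins inner to outer kinetochore, was at 18.5 and 19.1 CPM with MZ1, against 65.0 and 58.8 CPM with DMSO. It fell 3.29-fold (log2 fold change −1.72 ± 0.08; edgeR adjusted p = 8.61e-16). CENPM of the same group was at 15.3 and 21.4 CPM with MZ1 and at 53.4 and 58.4 CPM with DMSO, a 3.05-fold fall in which the MZ1 libraries themselves differed. CENPW, the histone-fold partner of CENP-T, was at 4.46 and 6.65 CPM with MZ1 and 15.9 and 16.9 CPM with DMSO (−1.56 ± 0.17). CENPU, which recruits PLK1, fell 1.34-fold, to 63.0 and 62.5 CPM with MZ1, against 86.9 and 80.9 CPM with DMSO. It shares 11.7% of its exonic length with other genes, the most with PRIMPOL, which rose by 1.04 on the log2 scale.

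Within the CENP-H/I/K/M group the other subunits did not pass the test. CENPI was at 19.9 and 21.97 CPM with MZ1 and 24.3 and 21.8 CPM with DMSO, with overlapping groups (95% interval of the log2 fold change −0.36 to 0.08). CENPK was at 30.4 and 33.9 CPM with MZ1 and 38.2 and 34.3 CPM with DMSO (−0.35 to 0.01). Its MZ1 libraries lay just below the others, and it was called lower with library totals alone and without DMSO replicate 2 or MZ1 replicate 2. CENPI and CENPK turned positive with upper-quartile scaling (0.13 and 0.10), which raised the log2 fold changes of all genes by a median of 0.27. Per exonic length, as RPKM (CPM divided by exonic length in kilobases), the ratio of CENPI to CENPH was 0.56 and 0.60 in the MZ1 libraries and 0.19 in both DMSO libraries. Such a ratio within a library does not depend on the scaling. CENPN, a reader of CENP-A nucleosomes, was at 30.4 and 25.5 CPM with MZ1 and 27.5 and 25.5 CPM with DMSO (interval −0.13 to 0.28). It shares 22.8% of its exonic length with other genes, the most with CMC2, which fell by 0.62 on the log2 scale.

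Outer kinetochore genes went both ways inside a single complex. Of 8 genes 4 rose, 3 fell and DSN1 was not called. The Ndc80 complex is a rod: NDC80 and NUF2 form the end that binds microtubules, and SPC24 and SPC25 the end that is anchored in the kinetochore. NUF2 rose to 59.1 and 63.9 CPM with MZ1, against 45.9 and 45.6 CPM with DMSO (log2 fold change 0.43 ± 0.07; edgeR adjusted p = 3.05e-06). SPC24 fell 2.61-fold, to 14.1 and 15.03 CPM with MZ1, against 37.3 and 38.9 CPM with DMSO (−1.38 ± 0.10; edgeR adjusted p = 1.95e-12). SPC25 fell 1.98-fold, with 10.96 and 10.99 CPM with MZ1, against 22.5 and 20.9 CPM with DMSO. NDC80 itself was at 32.5 and 44.6 CPM with MZ1 and 45.4 and 49.6 CPM with DMSO, a fall of 0.30 ± 0.10 on the log2 scale that rests on MZ1 replicate 1. Without that library it was −0.08 (edgeR adjusted p = 0.389, within 2.82e-07 to 0.778 over all alternatives), and NDC80 was not called by DESeq2 (adjusted p = 0.0767), with upper-quartile scaling or with either other count filter.

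Levels per exonic length are the same CPM divided by a fixed length for each gene, so they repeat the split and do not test it. With MZ1 the RPKM of the 4 subunits ranged from 4.98 for SPC24 to 19.0 for NUF2, and with DMSO from 11.4 for SPC25 to 13.8 for NDC80. The ratio of NUF2 to SPC24 was 3.53 and 3.59 in the MZ1 libraries, against 1.04 and 0.99 in the DMSO libraries. Exonic lengths count the exons of all annotated isoforms, so levels of different genes compare only roughly, while the change of a ratio between groups does not depend on the lengths.

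Genes of the largest outer proteins rose. CENPE, the kinesin that carries chromosomes to the spindle equator, was at 195 and 196 CPM with MZ1 and 91.0 and 88.3 CPM with DMSO, or 2.18-fold higher (log2 fold change 1.12 ± 0.05; edgeR adjusted p = 5.69e-17). KNL1, the scaffold on which BUB1 and BUB3 assemble, was at 214 and 212 CPM with MZ1 and 120 and 128 CPM with DMSO (0.79 ± 0.05). CENPF, a corona protein that binds dynein regulators, was at 1057 and 1016 CPM with MZ1 and 726 and 708 CPM with DMSO (0.53 ± 0.04). DSN1 of the Mis12 complex was at 39.4 and 36.9 CPM with MZ1 and 37.5 and 34.9 CPM with DMSO. Its groups overlap and the 95% interval of its log2 fold change is −0.09 to 0.24, but it was called higher with upper-quartile scaling (0.35) and with at least 1 CPM in all 4 libraries (0.25).

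**Figure D2:**
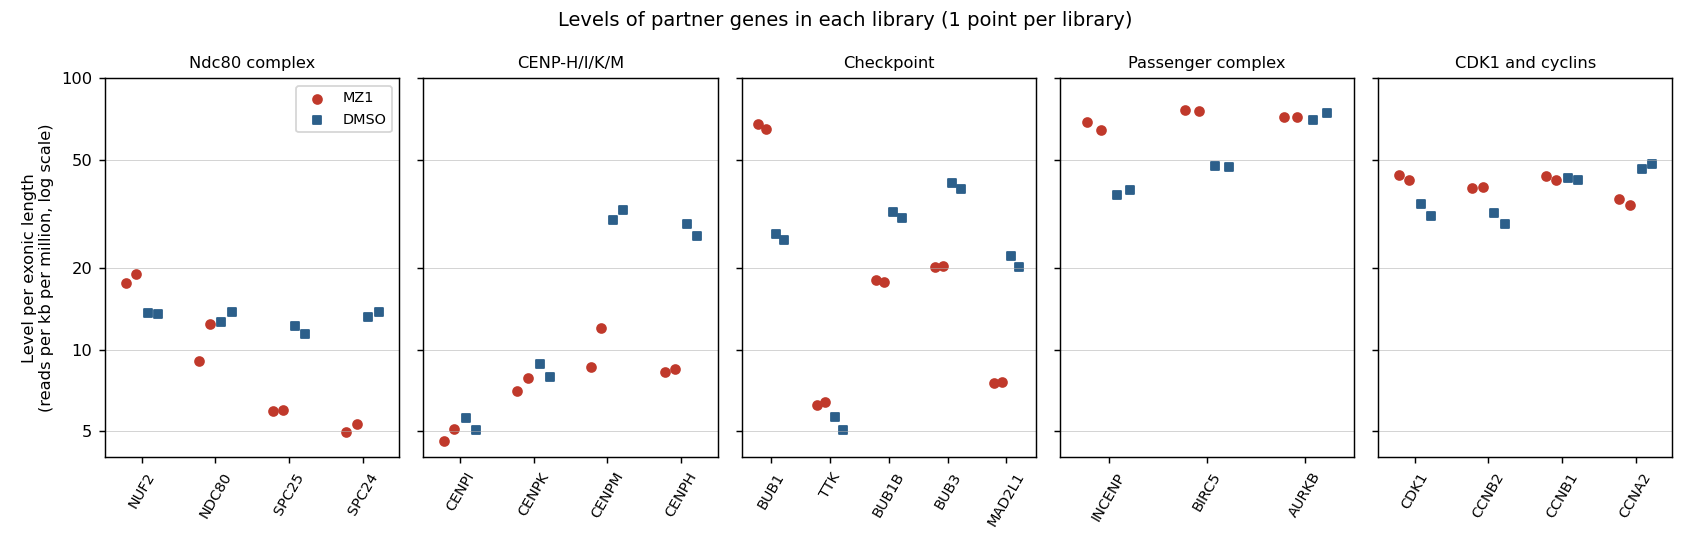
Level per exonic length (RPKM, log scale) of partner genes in each library, with dots for MZ1 and squares for DMSO, 1 point per library. The 4 genes of the Ndc80 complex lie between 11.4 and 13.8 with DMSO and between 4.98 and 19.0 with MZ1, and BUB1 lies above BUB3 and BUB1B with MZ1 and below them with DMSO.

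Checkpoint genes parted, with 2 of 5 higher and 3 lower. BUB1 (ENSG00000169679; chromosome 2, 110637698 to 110678114), a kinase that marks centromeric chromatin and recruits the other checkpoint proteins, rose to 411 and 394 CPM with MZ1, against 161 and 153 CPM with DMSO. The rise was 2.56-fold (log2 fold change 1.36 ± 0.04; edgeR adjusted p = 2.21e-19). The genes of the proteins that sequester CDC20 fell. MAD2L1, which encodes MAD2, was at 43.3 and 43.6 CPM with MZ1 and 127 and 116 CPM with DMSO, a 2.80-fold fall (−1.48 ± 0.06; edgeR adjusted p = 2.18e-17). BUB3 was at 167 and 169 CPM with MZ1 and 343 and 325 CPM with DMSO (−0.99 ± 0.04). BUB1B, which encodes BubR1, was at 80.5 and 79.2 CPM with MZ1 and 144 and 137 CPM with DMSO (−0.81 ± 0.05). BUB1 and BUB3 bind each other as proteins, and the ratio of their RPKM was 3.39 and 3.21 with MZ1, against 0.65 in both DMSO libraries. The ratio of BUB1B to BUB3 was 0.90 and 0.87 with MZ1 and 0.78 in both DMSO libraries. TTK, the kinase MPS1 that starts the checkpoint, was at 28.6 and 29.3 CPM with MZ1 and 25.7 and 23.1 CPM with DMSO (0.25 ± 0.10; edgeR adjusted p = 0.0191), and 5 alternatives lost this call, among them the omission of DMSO replicate 2 or MZ1 replicate 2 (0.13 to 0.52 over all alternatives).

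Mitotic kinesins rose in 10 of 11 cases, with KIF22 the exception. KIF18A (ENSG00000121621; chromosome 11, 28020620 to 28108308), which damps chromosome movements at the spindle equator, was at 86.6 and 81.8 CPM with MZ1 and 28.3 and 29.6 CPM with DMSO. Its rise was 2.91-fold (log2 fold change 1.54 ± 0.07; edgeR adjusted p = 1.18e-16), and the other 9 lay between 0.17 and 0.72 on the log2 scale. KIFC1, a minus-end motor that clusters centrosomes, was at 288 and 260 CPM with MZ1 and 164 and 170 CPM with DMSO (0.72 ± 0.05). KIF14, which acts with citron kinase in cytokinesis, was at 133 and 130 CPM with MZ1 and 85.2 and 86.6 CPM with DMSO (0.62 ± 0.05). The 6 others between these and KIF11 were the chromokinesin KIF4A, the cytokinesis motors KIF20A, KIF20B and KIF23, the microtubule depolymerase KIF2C and the spindle motor KIF15. KIF11 (Eg5), which pushes the spindle poles apart, showed the smallest rise, with 195 and 193 CPM with MZ1 and 175 and 170 CPM with DMSO (0.17 ± 0.05). That call was lost when library totals alone set the scale, when no count filter was used and when DMSO replicate 2 was left out (0.10 to 0.44 over the alternatives).

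KIF22 (ENSG00000079616; chromosome 16, 29790719 to 29805385), a chromokinesin that pushes chromosome arms outward, fell 2.32-fold. It was at 82.8 and 90.2 CPM with MZ1 and 198 and 202 CPM with DMSO (log2 fold change −1.21 ± 0.05; edgeR adjusted p = 4.33e-17). It shares 13% of its exonic length with other genes, the most with AC009133.4. The RPKM ratio of KIF18A to KIF22 was 0.97 and 0.84 with MZ1, against 0.13 and 0.14 with DMSO.

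Among mitotic kinases and the chromosomal passenger complex 3 of 5 rose, PLK1 fell and AURKB was not called. INCENP, the scaffold of the passenger complex, was at 310 and 289 CPM with MZ1 and 166 and 174 CPM with DMSO (log2 fold change 0.82 ± 0.05; edgeR adjusted p = 2.18e-14). BIRC5 (survivin), which docks the complex on chromatin, was at 292 and 288 CPM with MZ1 and 182 and 179 CPM with DMSO (0.68 ± 0.04). Their catalytic partner AURKB was at 161 and 162 CPM with MZ1, between the DMSO libraries at 157 and 168 CPM. Its 95% interval was −0.11 to 0.09 on the log2 scale, its direction changed under 6 of the 13 alternatives, and it was called higher with upper-quartile scaling (0.26) and with at least 1 CPM in all 4 libraries (0.17). The RPKM ratio of INCENP to AURKB was 0.97 and 0.89 with MZ1 and 0.53 and 0.52 with DMSO. AURKA, the kinase of the spindle poles, was at 80.3 and 90.7 CPM with MZ1 and 72.2 and 74.0 CPM with DMSO (0.23 ± 0.06). Its call was lost without MZ1 replicate 2 (0.13, edgeR adjusted p = 0.076, within 1.08e-07 to 0.129 over all alternatives) and without a count filter (0.15). PLK1, which drives mitotic entry and kinetochore attachment, was at 120 and 128 CPM with MZ1 and 172 and 173 CPM with DMSO, a 1.39-fold fall (−0.48 ± 0.05; edgeR adjusted p = 2.14e-09).

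All 7 genes of spindle assembly and cytokinesis rose. ECT2 (ENSG00000114346; chromosome 3, 172750682 to 172821474), which activates RhoA at the cleavage site, was at 195 and 194 CPM with MZ1 and 62.5 and 62.1 CPM with DMSO (log2 fold change 1.64 ± 0.05; edgeR adjusted p = 4.92e-20). HMMR, a spindle pole protein, was at 161 and 167 CPM with MZ1 and 103 and 96.2 CPM with DMSO (0.72 ± 0.05). ANLN (anillin), DLGAP5 and TPX2, which bind the contractile ring and spindle microtubules, rose by 0.51, 0.34 and 0.18 on the log2 scale. Counts of the remaining pair are uncertain. PRC1, which bundles the central spindle, was at 10.96 and 8.82 CPM with MZ1 and 2.32 and 3.42 CPM with DMSO (1.78 ± 0.22). However, 58.4% of its exonic length is shared with other genes, the most with the annotated gene ENSG00000284946. That gene stood at 13.2 and 12.0 CPM with MZ1 and 14.4 and 18.4 CPM with DMSO, and how the counting divided reads of the locus between both rows is not known. NUSAP1, a microtubule-bundling protein, was at 46.5 and 43.2 CPM with MZ1 and 26.6 and 26.2 CPM with DMSO. It shares 62.2% of its exonic length with other genes, the most with AC087721.2.

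Of 7 genes of CDK1, its cyclins and their control 4 rose, 2 fell and CCNB1 was not called. The largest changes were in CDC25B and FOXM1. CDK1, the mitotic kinase, was at 173 and 165 CPM with MZ1 and 135 and 123 CPM with DMSO (log2 fold change 0.40 ± 0.05; edgeR adjusted p = 1.45e-07). Its partner CCNB1 (cyclin B1; ENSG00000134057; chromosome 5, 69167010 to 69178245) was at 112 and 108 CPM with MZ1 and 110 and 108 CPM with DMSO. The groups overlap, the 95% interval was −0.09 to 0.12, and the direction changed under 6 of 13 alternatives, with a call as higher by upper-quartile scaling (0.28) and with at least 1 CPM in all 4 libraries (0.19). CCNB2 (cyclin B2), with the promoter shown above, was at 111 and 112 CPM with MZ1 and 89.5 and 81.3 CPM with DMSO (0.38 ± 0.05). CCNA2 (cyclin A2), which acts from S phase into early mitosis, fell to 100 and 95.2 CPM with MZ1, against 129 and 136 CPM with DMSO (−0.44 ± 0.05; edgeR adjusted p = 2.58e-08). The RPKM ratio of CCNA2 to CCNB2 was 0.91 and 0.85 with MZ1 and 1.45 and 1.67 with DMSO.

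CDC25B, a phosphatase that activates CDK1, rose 2.19-fold, to 247 and 258 CPM with MZ1, against 115 and 116 CPM with DMSO (log2 fold change 1.13 ± 0.05; edgeR adjusted p = 2.55e-17). Its paralog CDC25C was at 13.9 and 21.2 CPM with MZ1 and 13.9 and 13.98 CPM with DMSO, so the groups overlap and its call (0.34 ± 0.15; edgeR adjusted p = 0.0404) rests on MZ1 replicate 2. Without that library its log2 fold change was 0.00038 (edgeR adjusted p = 0.998, within 2.76e-05 to 0.998 over all alternatives), and 8 of 13 alternatives lost the call. CDC25C shares 8.8% of its exonic length with other genes, the most with FAM53C, which rose by 2.46 on the log2 scale. FOXM1 (ENSG00000111206; chromosome 12, 2857681 to 2877155), the transcription factor of late cell cycle genes, fell 3.16-fold. It was at 43.4 and 39.7 CPM with MZ1 and 133 and 130 CPM with DMSO (−1.66 ± 0.06; edgeR adjusted p = 9.98e-19). It shares 15.9% of its exonic length with other genes, the most with ITFG2, which also fell (−1.13).

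The cofactors of the anaphase-promoting complex and the chromatin genes close the set. UBE2C, which starts ubiquitin chains for the complex, was at 9.27 and 8.31 CPM with MZ1 and 22.1 and 23.7 CPM with DMSO, a 2.60-fold fall (log2 fold change −1.38 ± 0.13; edgeR adjusted p = 3.35e-10). CDC20, its activator and the target of the checkpoint, was at 283 and 291 CPM with MZ1 and 263 and 274 CPM with DMSO (0.10 ± 0.04; edgeR adjusted p = 0.0405). The CDC20 call was lost in 7 of 13 alternatives, including those without DMSO replicate 1, DMSO replicate 2 or MZ1 replicate 2 (0.02 to 0.37 over all alternatives). MKI67, which encodes the Ki-67 coat of mitotic chromosomes, was at 653 and 618 CPM with MZ1 and 405 and 402 CPM with DMSO (0.65 ± 0.04; edgeR adjusted p = 8.09e-14). TOP2A, which untangles sister DNA, was at 956 and 941 CPM with MZ1 and 829 and 797 CPM with DMSO (0.22 ± 0.04).

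Exonic length went with the direction of change inside the set. Across the 56 genes log2 fold change and log2 exonic length had Pearson's r = 0.44 and Spearman's rho = 0.41, which describes genes measured in the same 4 libraries and not independent replicates. Of the 5 genes under 2000 bases CENPA rose, and CENPM, CENPW, SPC25 and UBE2C fell. Without these 5 genes r was 0.26 and rho 0.34. Of 28 genes of 4000 bases or more 20 rose and 6 fell (BUB1B, BUB3, FOXM1, KIF22, MAD2L1 and PLK1). Among tested protein-coding genes of 4000 bases or more 40.3% were higher and 47.6% lower. Among those under 2000 bases 37.7% were higher and 50.3% lower. Over the 95 other genes of the machinery r was 0.21 and rho 0.17, over 12639 tested protein-coding genes −0.03 and 0.05, and over all tested genes −0.19 and −0.14. Why length goes with the change here was not tested.

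**Figure D3:**
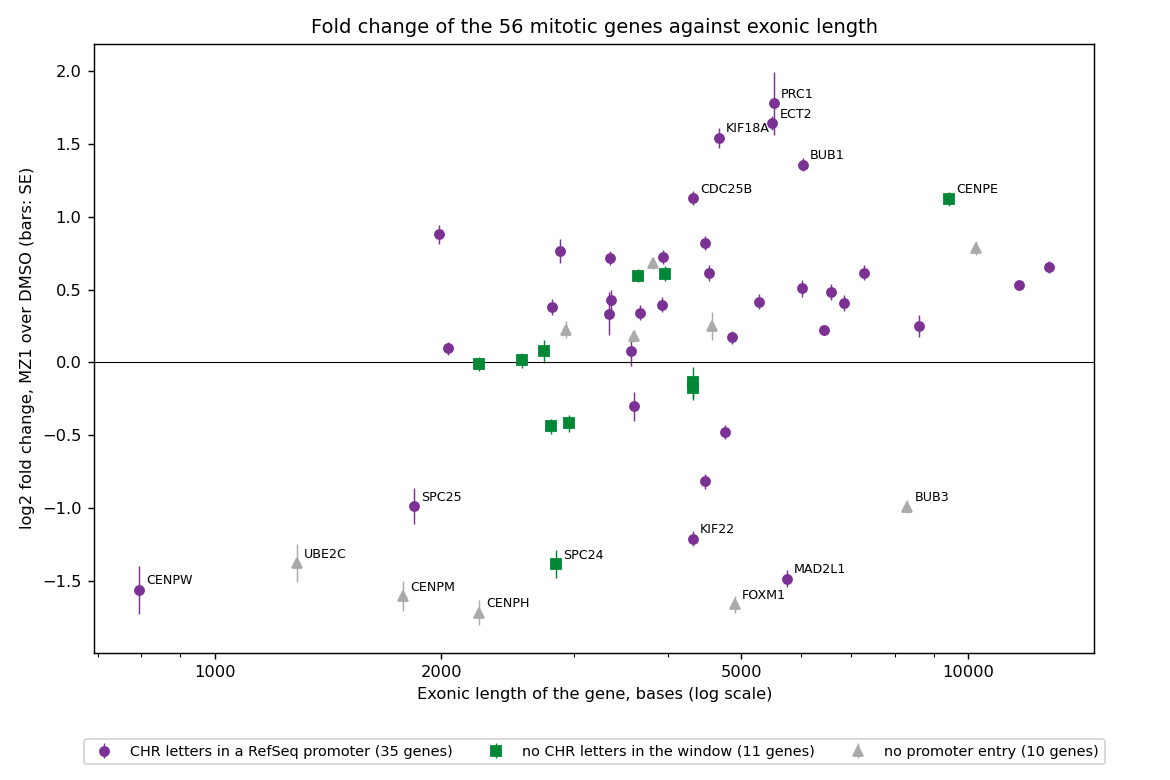
Log2 fold change (MZ1 over DMSO, y axis, bars are SE) of the 56 mitotic genes against exonic length (x axis, log scale), marked by whether a RefSeq promoter holds CHR letters. Genes with CHR letters (35) lie on both sides of 0, and 4 of the 5 genes under 2000 bases lie below it.

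Of 95 other genes of the same machinery, in lists drawn by role, 34 were higher (35.8%), 52 lower (54.7%) and 9 not called, with a median log2 fold change of −0.29. Among tested protein-coding genes 38.5% were higher and 48.8% lower, so these shares lie near the background. With upper-quartile scaling the balance turned, to 43 higher and 39 lower. More spindle and cytokinesis genes rose than fell. Of 17 further kinesin and spindle genes 10 rose and 4 fell, with ASPM, which focuses spindle poles, at 1047 and 992 CPM with MZ1 and 279 and 273 CPM with DMSO (1.88 ± 0.04). The largest fall among them was in PLK4, the kinase of centriole duplication (−1.56 ± 0.08). Of 6 further genes listed under cytokinesis 5 rose and ARHGAP11A fell (−0.31, a call lost with upper-quartile scaling). The largest rise there was in KIF13B (1.24 ± 0.07), which is better known as a transport kinesin.

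Of 20 further kinetochore and centromere genes 14 fell and 4 rose, from PMF1 of the Mis12 complex (−2.92 ± 0.18, to 2.19 and 2.82 CPM with MZ1, against 20.3 and 17.8 CPM with DMSO) to CENPQ (0.95 ± 0.15). PMF1 shares 23.3% of its exonic length with other genes, the most with the read-through gene PMF1-BGLAP. Of 12 further checkpoint and cohesion-protection genes 8 fell and 3 rose, with ZW10, which brings dynein to kinetochores, at −1.85 ± 0.12 and the AURKA activator BORA at 1.48 ± 0.09. BORA shares 37.0% of its exonic length with other genes, the most with DIS3. Of 16 condensin, cohesin and separase genes 11 fell and 3 rose, between SMC2, the condensin ATPase (−1.31 ± 0.05), and NCAPG, another condensin subunit (1.37 ± 0.05). NCAPG shares 33.1% of its exonic length with other genes, the most with LCORL. Of 16 genes of the anaphase-promoting complex and its inhibitors 8 fell and 7 rose, between ANAPC13 (−1.91 ± 0.12) and CDC16 (0.69 ± 0.07). With upper-quartile scaling these counts drew level, at 7 lower and 7 higher for the anaphase-promoting complex list and 7 lower and 6 higher for the condensin and cohesin list. With TMM scaling the shares lower were 70% (kinetochore), 66.7% (checkpoint), 68.8% (condensin and cohesin) and 50% (anaphase-promoting complex). The shares higher were 20%, 25%, 18.8% and 43.8%. Of tested protein-coding genes 48.8% were lower and 38.5% higher.

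Of 8 further mitotic entry genes 6 fell and 2 rose, with the phosphatase gene CDC25A at 17.7 and 19.9 CPM with MZ1 and 113 and 114 CPM with DMSO (log2 fold change −2.60 ± 0.07) and CCNF (cyclin F) at 0.35 ± 0.05. Of 13 DREAM and MuvB genes 8 fell and 3 rose. TFDP1, the partner of E2F factors, fell 4.02-fold, to 38.3 and 38.8 CPM with MZ1, against 155 CPM in both DMSO libraries. MYBL2, named here after its value was seen, fell 3.24-fold, to 125 and 126 CPM with MZ1, against 402 and 411 CPM with DMSO. LIN37 had the largest rise (1.33 ± 0.34), at 4.67 and 3.04 CPM with MZ1 and 2.08 and 1.00 CPM with DMSO, a call lost without a count filter. It shares 54% of its exonic length with other genes, the most with AD000671.3. Its log2 fold change was 0.85 without DMSO replicate 2 and 1.89 without DMSO replicate 1. Of 26 replication and G1/S genes 24 fell and 0 rose by edgeR's test (1 rose with upper-quartile scaling), with a median log2 fold change of −1.99, against 0.29 for the 56 mitotic genes. The largest fall among them was in GINS3 of the replicative helicase, to 5.87 and 4.99 CPM with MZ1, against 47.5 and 49.0 CPM with DMSO. The shares lower were 75% (mitotic entry), 61.5% (DREAM and MuvB) and 92.3% (replication and G1/S), against 48.8% of tested protein-coding genes. The shares higher were 25%, 23.1% and 0%, against 38.5%.

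**Figure D4:**
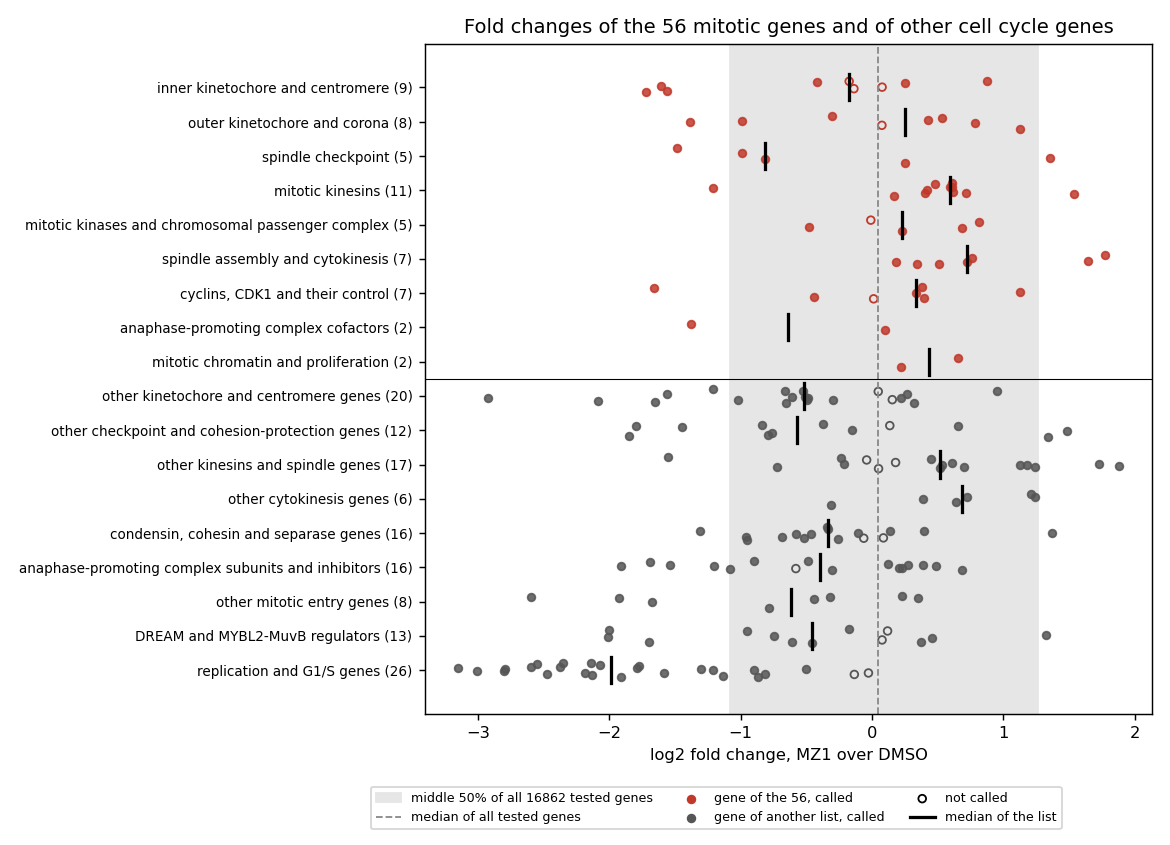
Log2 fold change (MZ1 over DMSO, x axis) of each gene, by list (y axis, number tested in brackets), for the 56 mitotic genes above the line and other cell cycle genes below it. Black bars are list medians, open circles are genes not called, and the grey band holds the middle 50% of all 16862 tested genes. The kinesin and the spindle and cytokinesis medians (0.60 and 0.72) lie right of 0, and replication genes (median −1.99) lie furthest left.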

How the data were processed

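The authors deposited raw read counts by Ensembl gene ID, which per the file headers and their whole-number values are not normalized. Alignment with HISAT2 2.2.0 and the build hg38 come from the submitters' processing notes. Which program counted reads, on which annotation and with which strand setting is not given in the sources used here. Overlapping and antisense genes may share reads. Exonic overlaps above 10% not given above are those of BUB1B (10.2%, the most with BUB1B-PAK6), PLK1 (12.5%, the most with AC008870.3) and KIFC1 (12.7%, the most with RPL12P1). Each share counts the exonic bases of a gene that exons of any other gene also cover, and the gene named has the largest overlap. TRIzol RNA and a TruSeq RNA kit were used, per the labels' protocols. Groups came from the titles.

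Symbols came from the gene name table (28597 of 28814 IDs matched), positions and exonic lengths from GENCODE release 29 (GRCh38) and promoters from RefSeq. In R 4.3.3 with edgeR 4.0.16, filterByExpr kept 16862 genes, TMM scaled the libraries and glmQLFit with glmQLFTest compared treatments, adjusted over all tested genes. SEs come from the F statistic, 95% intervals from the same fit, and levels are CPM. Replicates differed by more than sampling noise (chi-square per degree of freedom 2.17 for MZ1 and 2.44 for DMSO). Alternatives used DESeq2 1.42.0, limma 3.58.1, other scalings, filters, a replicate block and omission of each library. Per-library values were given, by role, for up to 3 called genes with the largest rise and fall, all genes not called and complexes that split, and in other lists for at most the largest rise and fall. KIF11 and genes that overlap a named gene were added after values were seen. The members and lists were chosen with earlier results of these data known.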

Additional observations from a re-analysis of the deposited data

How the results depend on the processing

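Of the 56 mitotic genes, 43 kept their direction and their call under all 13 alternatives. The matching share of all tested genes was not counted, so whether this is more or less than usual is not known. The calls of 7 were lost under at least 1 of them (CENPC, NDC80, TTK, KIF11, AURKA, CDC25C and CDC20), and 6 that were not called changed direction. Leaving out each library in turn gave 30 to 35 genes higher and 14 to 16 lower. The median log2 fold change of the set was 0.57 with upper-quartile scaling and 0.22 with library totals, against 0.32 and −0.03 for all tested genes. It was 0.22 when no count filter was used and 0.47 with at least 1 CPM in all 4 libraries, against 0.18 and 0.01. With a minimum of 2-fold 6 mitotic genes were higher and 8 lower, against 4887 higher and 4425 lower of all tested genes.

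Directions changed as follows, on the log2 scale. With upper-quartile scaling CENPI was 0.13, CENPK 0.10 and AURKB 0.26, and with at least 1 CPM in all 4 libraries 0.0382, 0.00210 and 0.17. AURKB was 0.0200 with the size factors of DESeq2 in edgeR and 0.0201 by DESeq2 itself. With library totals DSN1 was −0.000207 and CCNB1 −0.0633, with no count filter −0.000530 and −0.0637, and CCNB1 was −0.000173 without the 100 most abundant genes. Omission of each library gave −0.0485 to 0.198 for CENPN, −0.0133 to 0.121 for DSN1, −0.101 to 0.00350 for AURKB and −0.0382 to 0.0362 for CCNB1. The cause was not tested.

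With the replicate number as a block 34 mitotic genes were higher and 15 lower, and 7107 of all genes were higher and 6856 lower. Only CDC20 lost its call among the 56. Deviations of same-numbered libraries correlated at 0.01 across genes over 2 pairs. So few pairs cannot show whether same-numbered libraries shared a batch. Genes with few reads, such as PRC1 and CENPW, have the widest errors.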
